A study of Rattus norvegicus with 8 samples.

Results

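miR-103 and miR-107 are 2 near-identical microRNAs, followed here in pancreatic islets, the hormone-secreting cell clusters of the pancreas, of young and adult rats. They were chosen by name, as the array features annotated to rno-miR-103 or rno-miR-107 together with any product of the opposite hairpin arm, which the array marks with an asterisk. These were 2 of the 677 rat miRNAs on the array, with 3 opposite-arm products. The islets came from Sprague Dawley rats labelled as controls, either 10 days old (P10, 4 arrays, sex not given in the labels) or males 3 months old (adult, 4 arrays). The labels call the arrays of an age biological replicates and do not say how many animals gave the islets of each. No treatment, transgene or deletion is named for either age.

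A microRNA guides a silencing complex to messenger RNAs that pair with its seed, the bases just behind its 5′ end. miR-103 and miR-107 lie in introns of genes for pantothenate kinases, the enzymes that start coenzyme A synthesis, and are best known for lowering insulin sensitivity in liver and fat, where caveolin-1 is a known target. miR-103 is also in wide use as a reference miRNA for normalising measurements. In islets the maturation of the beta cell, the insulin-secreting cell, is the question that the title of the series names.

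The mature sequences are shown because the results below turn on how little they differ. They were taken from RefSeq (GRCr8), where both names were matched to the 3′ arm, and the seed, positions 2 to 8, is in capitals.
miR-103-3p: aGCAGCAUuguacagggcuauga
miR-107-3p: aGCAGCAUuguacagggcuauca
Both are 23 bases long and share the seed, and no other mature rat miRNA in the table had it. They differ at 1 position, G22C, counted from the 5′ end with the miR-103 base first. The sequences of the array's probes were not used here, so how far a probe for one miRNA also reads the other was not measured, and the levels of the pair are uncertain to that extent.

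The precursors are shown because 2 loci give the same mature miR-103. In the hairpins below, each 5′ to 3′, the mature sequence is in capitals.
Mir103a1: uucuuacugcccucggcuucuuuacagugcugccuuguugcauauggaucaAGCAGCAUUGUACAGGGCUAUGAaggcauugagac
Mir103a2: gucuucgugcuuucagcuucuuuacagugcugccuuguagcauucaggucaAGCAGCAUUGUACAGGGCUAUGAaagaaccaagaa
Mir107: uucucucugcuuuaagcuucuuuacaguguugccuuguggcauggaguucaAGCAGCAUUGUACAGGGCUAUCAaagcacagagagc
In GRCr8 Mir103a1 lies within Pank3 on chromosome 10 (plus strand), Mir103a2 within Pank2 on chromosome 3 (plus strand) and Mir107 within Pank1 on chromosome 1 (minus strand). The mature miR-103 signal cannot be divided between its loci. The opposite-arm products miR-103-1*, miR-103-2* and miR-107* could have told the loci apart, but their 7 probes had mean signals of -5.43 to 7.63 intensity units and were well above background in 0 of 56 probe and array combinations.

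All 8 arrays lay on 1 slide, with P10 in one bank of 4 positions and adult in the other, so the bank and the age cannot be told apart. The 75th percentile of signal, over the 278 probes that every array measured well above background, was 388 and 440 intensity units on P10 replicates 1 and 2, 989 and 1690 on replicates 3 and 4, and 1284 to 1677 on the adult arrays. Log2 levels below are relative to that percentile, which was taken on each array. The islet list, headed by miR-375 and miR-7a, was present on every array. Its summed level (sum of the scaled signals of 5 tested members of 6) was 11.8 to 26.0 in P10 and 44.1 to 50.2 in adult. That sum is weighted towards the brightest members, and between the ages miR-7a rose by 1.85 in log2 but miR-375 by 0.47. In bulk islets fewer cells of a type and less of a miRNA per cell cannot be told apart.

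miR-103 and miR-107 were clearly detected in islets of both ages, and under the scaling used here neither passed the test for a difference between them. Each has 2 probes on the array, and all 4 probes were well above background on all 8 arrays. Unscaled signals of the brighter probe of miR-103 ran from 334 to 2456 intensity units and those of the brighter probe of miR-107 from 338 to 2821. Each mean rested on 8 to 10 copies of the probe, whose coefficient of variation had a median of 6.13% for miR-103 and 6.17% for miR-107, and reached 12.5% on 1 array. The spread between copies was therefore small beside the spread between P10 arrays described next.

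On its brighter probe, miR-103 had log2 levels, in replicate order, of -0.22, 0.12, 0.53 and 0.54 in P10. In adult they were 0.50, 0.45, 0.43 and 0.40. The adult arrays lay close together, and P10 replicates 1 and 2 lay below all of them while replicates 3 and 4 lay above all of them. The means were 0.24 ± 0.36 (SD, n = 4) in P10 and 0.45 ± 0.04 (SD, n = 4) in adult. The adult mean was 1.15-fold the P10 mean, a log2 difference of 0.20 ± 0.18 (SE) with a limma adjusted p of 0.406. Its 95% interval ran from -0.21 to 0.62, so that adult levels from 0.863-fold to 1.54-fold the P10 level lay inside it.

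miR-107 had log2 levels, in replicate order, of -0.20, 0.05, 0.50 and 0.50 in P10, and 0.71, 0.69, 0.75 and 0.58 in adult. Here every adult array lay above every P10 array. The means were 0.21 ± 0.35 (SD, n = 4) in P10 and 0.68 ± 0.07 (SD, n = 4) in adult. The log2 difference was 0.47 ± 0.18 (SE), or 1.39-fold, with a limma adjusted p of 0.0582, which did not pass the threshold of 0.05. Its 95% interval before adjustment was 0.07 to 0.88. That interval, like the one for miR-103, assumes the same variance at both ages, although the SDs were 0.35 and 0.07. Of the 238 miRNAs tested, 47.5% passed that threshold and 25.6% had all adult arrays above all P10 arrays (45.8% had no overlap in either direction), so the separation of miR-107 was shared by many miRNAs.

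**Figure D1:**
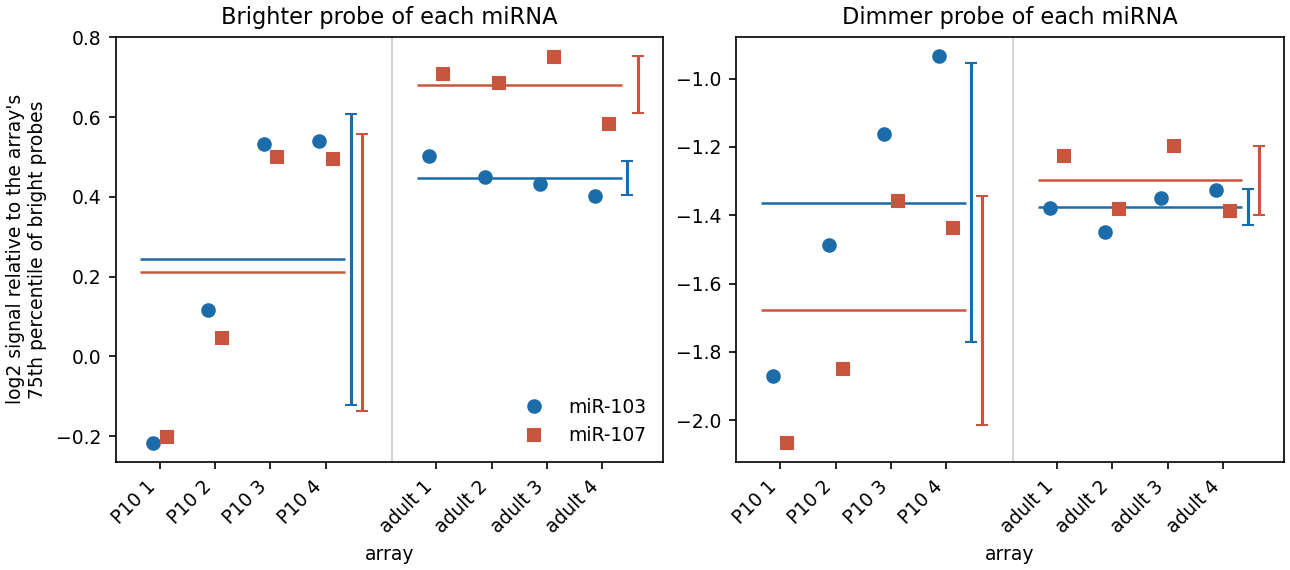
Log2 signal of miR-103 (circles) and miR-107 (squares) on each of the 4 P10 and 4 adult arrays, relative to the 75th percentile of bright probes, for the brighter (left) and dimmer (right) probe of each; horizontal lines are group means and bars are SD (n = 4). P10 replicates 1 and 2 lay lowest for both miRNAs on the brighter probes, and the adult values of miR-107 on its brighter probe, 0.58 to 0.75, lay above all its P10 values.

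The dimmer probes gave smaller differences. For miR-103 the dimmer probe was at -1.36 ± 0.41 (SD, n = 4) in P10 and -1.38 ± 0.05 in adult, a difference of -0.01, and the adult range of -1.45 to -1.33 lay inside the P10 range of -1.87 to -0.93. For miR-107 the dimmer probe was at -1.68 ± 0.34 in P10 and -1.30 ± 0.10 in adult, a difference of 0.38, and the ages overlapped (P10 up to -1.36, adult from -1.39). The direction for miR-103 therefore depended on the probe, while both probes of miR-107 were higher on average in adult.

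The authors' value table, which gives 1 log2 value per miRNA and array, had the same order of arrays within P10. There miR-103 stood at 9.50, 9.82, 10.36 and 10.53 on P10 replicates 1 to 4 and between 10.23 and 10.32 on the adult arrays. miR-107 stood at 9.45, 9.71, 10.32 and 10.32 in P10 and between 10.4 and 10.6 in adult. Again the adult values of miR-103 lay inside its P10 range and those of miR-107 above it. limma on that table gave a difference of 0.22 for miR-103 (adjusted p = 0.441) and 0.54 for miR-107 (adjusted p = 0.0725).

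The low values of both miRNAs on P10 replicates 1 and 2 coincided with other features of those arrays. They were the dimmest arrays, and their islet list summed to 11.8 and 18.2 against 25.6 and 26.0 on replicates 3 and 4. The acinar list (miR-216a, miR-216b-5p and miR-217, known from exocrine pancreas) was highest on the same arrays, with summed levels of 0.96 and 0.80 against 0.081 and 0.066, and 0.23 to 0.46 in adult. On P10 replicates 3 and 4 both miR-216b-5p and miR-217 lay at the floor, and 0 of the 3 passed the limma test for age. Other lists divided the P10 arrays too. The endothelial list was lower on replicates 1 and 2 (2.34 and 2.83) than on replicates 3 and 4 (4.43 and 4.71). So was the mesenchymal list, at 4.27 and 4.78 against 6.1 and 7.38. The leukocyte list summed to 3.64 on replicate 4 and to 0.72 to 1.43 on the other P10 arrays. The part of brightness or of any of these lists in the values of miR-103 and miR-107 was not tested. With P10 replicates 3 and 4 alone, the difference was -0.09 for miR-103 (limma adjusted p = 0.374) and 0.18 for miR-107 (adjusted p = 0.115). Without P10 replicate 3 or 4 instead, miR-107 passed, at 0.57 in both fits (limma adjusted p = 0.0355 and 0.0263).

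Among all tested miRNAs 27.3% were called higher and 20.2% lower in adult. Of the other marker lists, gut epithelium fell in all 3 tested members and its summed level was 1.11 to 13.5 in P10 and 0.28 to 0.51 in adult. Mesenchymal markers summed to 4.27 to 7.38 in P10 and 5.10 to 7.11 in adult, with 1 of 5 higher and 3 lower. Erythroid markers, with 2 of 2 higher, summed to 0.15 to 0.25 and 0.25 to 0.65. Leukocyte markers (0.72 to 3.64 and 1.24 to 1.58) and endothelial markers (2.34 to 4.71 and 2.92 to 3.32) had 0 of 4 and 0 of 2 tested members past the limma threshold in either direction. miR-122, which marks hepatocytes, was well above background on 0 arrays. The part of these cell types in the values of miR-103 and miR-107 was not tested.

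The size of both differences moved with the scaling of the arrays, as did that of miRNAs at large. Over the 238 tested miRNAs the median difference (log2) stood at -0.01 here, 0.45 with the percentile over all probes, 0.94 without scaling, 1.07 with spike-in scaling and 0.11 with quantile normalization. In those alternatives miR-103 was at 0.67, 1.16, 1.29 and 0.03, and miR-107 at 0.94, 1.43, 1.56 and 0.32. Relative to the median of all miRNAs, miR-103 was at 0.22 here and in the first 3 of these between 0.22 and 0.23, but at -0.08 with quantile normalization and -0.28 and -0.30 with cyclic loess over all or bright probes. miR-107 was at 0.49 relative to the median here and at -0.05 with cyclic loess on bright probes, and passed with the percentile over all probes (limma adjusted p = 0.0467). Under the scaling used here 91 of the 238 tested miRNAs had a larger difference towards adult than miR-103, and 66 had a larger one than miR-107.

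**Figure D2:**
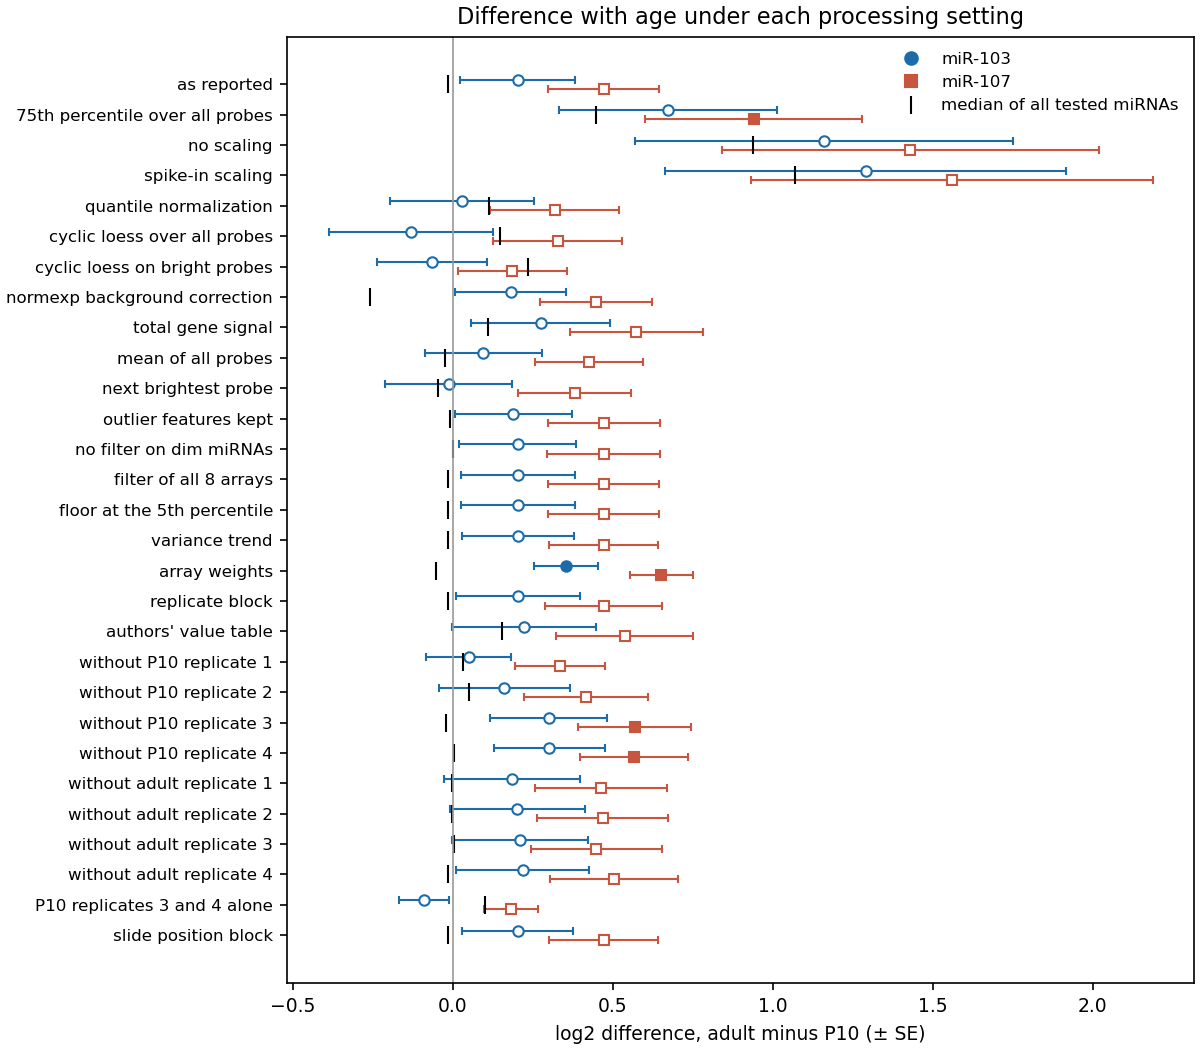
Log2 difference between adult and P10 (± SE) of miR-103 (circles) and miR-107 (squares) under each processing setting, filled where the limma adjusted p was under 0.05, with the median of all tested miRNAs as a vertical tick. miR-107 lay to the right of miR-103 in every setting, from 0.18 to 1.56 against -0.13 to 1.29.

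Because a scaling factor acts on both miRNAs of an array alike, it cancels in their difference within the array. This within-array gap, miR-103 minus miR-107 in log2, asks whether the pair changed unequally with age, and its size on any one array has no meaning as a ratio of amounts, since probes differ in brightness. On the brighter probes the 4 P10 arrays had gaps of -0.01, 0.07, 0.03 and 0.04, and the adult arrays, also in replicate order, -0.20, -0.24, -0.32 and -0.18. The P10 arrays lay close together, and all adult arrays lay below them. The means were 0.03 ± 0.04 (SD, n = 4) and -0.23 ± 0.06 (SD, n = 4). From P10 to adult miR-103 thus fell by 0.27 in log2 relative to miR-107, or 1.2-fold (exact permutation test, two-sided, p = 0.0286), which is the smallest value that 4 arrays against 4 allow.

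The dimmer probes gave a change of the same sign. Their gaps in P10 were 0.19, 0.36, 0.20 and 0.50, and in adult -0.15, -0.07, -0.15 and 0.06, a change of -0.39. Pairing the brighter probe of miR-103 with the dimmer probe of miR-107 gave a change of -0.18, and the reverse pairing a change of -0.48. In all 4 pairings the ages did not overlap and the exact permutation p was 0.0286. All 6 gaps computed had this smallest possible p, so Benjamini-Hochberg adjustment over them could not change it. The pairings reuse the same probes and arrays, so they are not separate tests of the change.

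Probes of 1 miRNA also moved apart with age, which gives a rough scale for such a change. The scale is rough because these gaps compare a brighter with a dimmer probe. The brighter probes of miR-103 and miR-107 were about equally bright in P10 (mean gap 0.03). The brighter probe of miR-103 exceeded its dimmer probe by 1.65, 1.60, 1.69 and 1.47 in P10 and by 1.88, 1.90, 1.78 and 1.73 in adult. That is a change of 0.22 without overlap of the ages (exact permutation p = 0.0286), close to the 0.27 found between the miRNAs. For miR-107 the same gap went from 1.89 ± 0.03 (SD, n = 4) to 1.98 ± 0.06, a change of 0.09. Here the ages all but touched, at 1.934 on P10 replicate 4 and 1.935 on adult replicate 1. Over 112 tested miRNAs with 2 probes well above background on all arrays, the gap between the 2 brightest probes changed by a median of 0.09 in either direction. It changed by as much as the gap between miR-103 and miR-107, or more, in 10 of them (8.93%). The ages did not overlap in 40 of them (35.7%), and the gap widened in adult in 89. The change between miR-103 and miR-107 was thus larger than that between most pairs of probes for the same miRNA, but not outside their range. P10 replicate 4 was the brightest array of all. Its gap between miR-103 and miR-107 was 0.04 on the brighter probes, among those of the other P10 arrays, and 0.50 on the dimmer probes, the highest in P10. The part of brightness in the gaps was not tested.

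**Figure D3:**
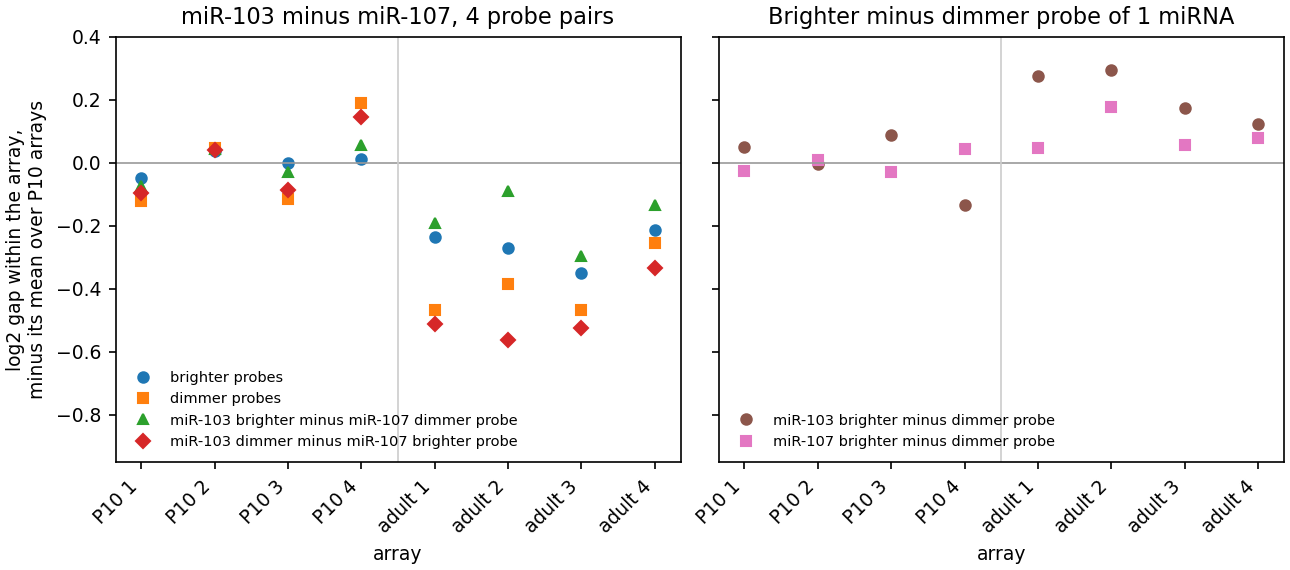
Within-array log2 gaps on each array, centred on their P10 mean, for the 4 probe pairings of miR-103 with miR-107 (left) and for the brighter minus the dimmer probe of each miRNA (right). Every adult point of the left panel lay below the P10 points of its pairing, with changes of -0.48 to -0.18. The adult points of the right panel lay above the P10 points, by 0.22 for miR-103 and 0.09 for miR-107 on average. For miR-107 the nearest points of the 2 ages all but touched.

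The closest relatives of the pair are the other miRNAs of the miR-15/miR-107 group, known for acting on cell cycle and cell survival genes. They are shown because they share the stretch AGCAGC, in capitals, 1 base further from the 5′ end than in miR-103 and miR-107, so that their seed is shifted by that base.
miR-15b-5p: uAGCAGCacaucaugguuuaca
miR-16-5p: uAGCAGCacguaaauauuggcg
miR-195-5p: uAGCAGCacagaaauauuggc
miR-322-5p: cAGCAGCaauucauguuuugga
miR-497-5p: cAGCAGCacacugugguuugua
miR-503-5p: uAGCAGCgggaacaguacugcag
A search of the given strand of all mature rat sequences in the table for AGCAGC starting at base 1 or 2 found it in 8, these 6 and the pair.

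All 5 tested members of this group passed under the scaling used here, 2 of them higher and 3 lower in adult, beside 27.3% higher and 20.2% lower among all tested miRNAs. miR-503 was not well above background on enough arrays to be tested. miR-195 rose by 1.36 ± 0.20 (log2 difference ± SE, n = 4 per age, limma adjusted p = 0.000815) and miR-497, made from the same cluster, by 1.14 ± 0.19 (adjusted p = 0.00172). Both lay lowest on P10 replicates 1 and 2, as miR-103 and miR-107 did: miR-195 was at -2.05, -1.83, -1.36 and -1.26 on P10 replicates 1 to 4 and at -0.49 to -0.17 in adult. The call of miR-195 was lost with cyclic loess over all probes (0.59), while that of miR-497 held in all 28 alternatives.

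miR-15b fell by 1.12 (limma adjusted p = 0.000247), from 0.68 to 1.07 in P10 to between -0.42 and -0.18 in adult, and lost its call when arrays were left unscaled (-0.16) or scaled to spike-ins (-0.03). miR-322 fell by 1.06 (adjusted p = 0.000141), and its difference was -0.10 unscaled and 0.03 when scaled to spike-ins. miR-16, often used as a reference miRNA, fell by 0.33 (limma adjusted p = 0.0242), but was at 0.14, 0.63 and 0.77 with the percentile over all probes, unscaled and scaled to spike-ins. The call of miR-16 was lost in 12 of 28 alternatives, and its difference was smaller in size than that of miR-107 (0.47), which did not pass. The median difference of the 5 was -0.33, against -0.01 for all tested miRNAs. The group went both ways, and the differences of miR-103 and miR-107 lay between those of its falling and rising members.

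Other miRNAs known from work on insulin action differed more widely. Of 20 listed, 17 were tested, and 7 rose, 1 fell and 9 did not pass. The 8 called of 17 are near the 47.5% of all tested miRNAs. The balance of directions depended on the scaling: 11 were called higher and 1 lower under the all-probe percentile, 3 and 4 under quantile normalization, 5 and 4 under cyclic loess on bright probes, and 3 and 5 in the authors' table. The median difference was 0.20, with 0.20 for miR-103 and 0.47 for miR-107. The largest were miR-29b (3.59), miR-29c (2.68) and miR-29a (2.66), which are known to impair insulin action and which all lost their calls with cyclic loess over all probes (1.37, 1.14 and 0.84). let-7e rose by 1.01 and miR-143, known from insulin resistance in liver, by 0.93 with a limma adjusted p of 0.0485. let-7e lost its call with quantile normalization (0.58), with all-probe cyclic loess (0.39) and in the authors' table (0.71). miR-143 lost its call in 21 of 28 alternatives. let-7f and miR-26b rose by 0.38 each, and were at -0.18 and -0.11 with quantile normalization. With cyclic loess on bright probes let-7f was called lower in adult (-0.36). miR-378, an intronic miRNA of a metabolic coactivator gene, fell by 1.58, and lost its call unscaled (-0.62) and scaled to spike-ins (-0.49). Brightest among those that did not pass were let-7c (0.38), let-7a (0.15), let-7b (0.17) and let-7i (-0.04). Each of these 4 was below 0 with quantile normalization, where let-7a (-0.46) and let-7i (-0.61) were called lower in adult. Both were also called lower with cyclic loess on bright probes (-0.57 and -0.52) and in the authors' table (-0.57 and -0.49). In that table let-7b (-0.51) was called lower as well. Under the all-probe percentile let-7c (0.85), let-7a (0.62) and let-7b (0.64) were called higher in adult, and let-7b and let-7c also when unscaled or scaled to spike-ins.

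miR-103 is often used as a reference, so 10 other miRNAs with that use were followed beside it. Of these 8 were tested, and miR-191 and miR-423 were too dim. Under the scaling used here 2 rose, 3 fell and 3 did not pass, beside 27.3% called higher and 20.2% lower among all tested miRNAs. The balance was 4 higher and 2 lower under the all-probe percentile, 1 and 5 under quantile normalization, and 2 and 5 in the authors' table. miR-24 rose by 1.04 and miR-186 by 0.52, while miR-93 fell by 1.72, miR-25 by 1.30 and miR-16 by 0.33. miR-24 lost its call with quantile normalization (0.51) and all-probe cyclic loess (0.42). miR-186 lost its call with normexp (0.22), on the next brightest probe (0.33) and under all-probe cyclic loess (0.70). miR-25 lost its call in 4 of 28 alternatives and miR-93 in 3, both among others without scaling (-0.34 and -0.76). miR-26a (0.20), let-7a (0.15) and miR-361 (-0.16) did not pass. Quantile normalization gave -0.46, -0.46 and 0.07 for these, and the first 2 were then called lower in adult. Under the all-probe percentile the same 2 were called higher, at 0.67 for miR-26a and 0.62 for let-7a. The median absolute difference of the 8 was 0.42, against 0.20 for miR-103, and that of let-7a, miR-361 and miR-26a was as small or smaller. The P10 values of miR-103 ran from -0.22 to 0.54, on both sides of its adult values, so its small mean difference does not show a steady level.

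**Figure D4:**
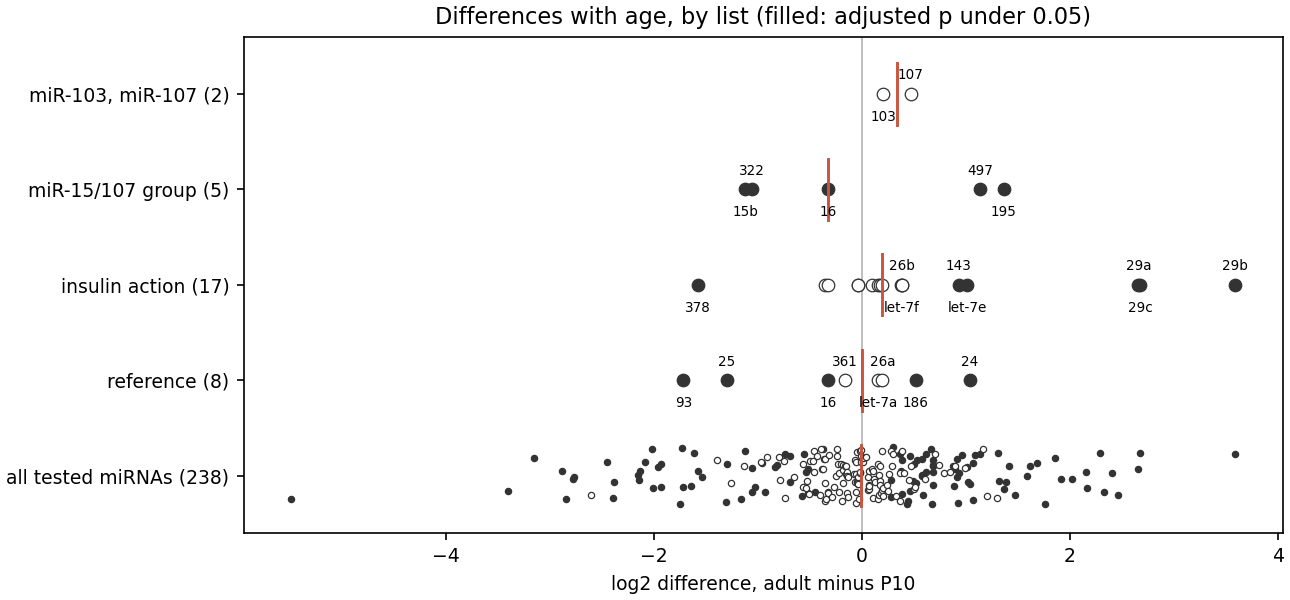
Log2 difference between adult and P10 of miR-103 and miR-107, of the tested members of 3 fixed lists and of all 238 tested miRNAs; points are miRNAs, filled where the limma adjusted p was under 0.05, labels give miRNA numbers, and red bars are medians. All 5 tested relatives in the miR-15/miR-107 group passed, at -1.12 to 1.36, while miR-103 (0.20) and miR-107 (0.47) did not.

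The miRNAs whose pattern over the 8 arrays was most like that of each of the pair were found by the root-mean-square distance between log2 profiles centred on their own means, among 163 others well above background on all arrays. The smaller this distance, the more alike are the profiles. The 5 nearest to miR-103 were miR-125a-5p (0.139), miR-342-3p (0.140), miR-107 (0.140), miR-369-5p (0.144) and miR-146a (0.146). None of these 5 passed the age test, with differences of 0.06 to 0.47. The 5 nearest to miR-107 were miR-140 (0.088), miR-27a (0.092), miR-324-5p (0.111), miR-375 (0.138) and miR-103 (0.140). Of these miR-140 (0.50), miR-27a (0.43) and miR-375 (0.47) rose, each with a limma adjusted p between 0.0336 and 0.0485. The median distance over all 163 was 0.483 for miR-103 and 0.515 for miR-107. The profile of miR-375, the most studied islet miRNA, was thus nearer to miR-107 than miR-103 was, though the distances of 0.138 and 0.140 hardly differ.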

How the data were processed

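Islet total RNA, labelled with cyanine 3 per the labels, was hybridised to 1-colour Agilent miRNA arrays. The deposited scanner output (Agilent Feature Extraction 10.7.3.1 in the headers) gives each spot's intensity after background subtraction. The authors' deposited value table is in log2 for 311 miRNAs. No source used here says how it was produced, and its columns share 1 set of sorted values, as after quantile normalization. The array design names the build rn4, so no coordinates are given.

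Outlier features were left out, the rest averaged per probe, and each array divided by its 75th percentile over the 278 probes detected throughout. Values were raised to a common floor (-5.51 in log2), and the brightest probe stood for each miRNA. The 238 miRNAs well above background on at least 4 arrays entered a limma fit (version 3.58.1, R 4.3.3; adult minus P10, no block, Benjamini-Hochberg adjustment over all 238, threshold 0.05). Within-array gaps were tested with exact permutation tests over arrays. The number of arrays limits the precision. limma p-values weigh the difference between the ages against the spread between arrays within an age. Permutation p-values place the observed difference among those of all possible splits of the arrays.

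miR-103, miR-107, the lists and the tests were chosen with earlier results of these data known. Named miRNAs were the pair, tested members of the miR-15/miR-107 group, called members of the other lists with up to 4 of the rest by brightness, and the 5 nearest profiles. Alternatives changed the scaling, background correction (normexp on median signals), probes, dim-miRNA filter, floor, variance model, weights, blocking, source table and arrays included. Slide position as a block and mixed probe pairs were chosen after seeing the data. The limma step was tested on simulated data.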

Additional observations from a re-analysis of the deposited data

Results flagged for a closer look

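Of 30 groups of 4 arrays examined for 1 array far from the other 3, 1 stood out, where chance gives about 1 in 20. miR-195 was lower on adult replicate 4 (-0.49 in log2) than on the other adult arrays (-0.22 to -0.17), and that gap made up 0.833 of the range of the adult arrays, above the critical value of Dixon's test. The miRNA still rose without that array. No group of miR-103, of miR-107 or of the gaps between them stood out in this way.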

How the results depend on the processing

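miR-103 stayed uncalled in 27 of 28 alternatives. It reversed to -0.13 and -0.065 with cyclic loess over all probes or on bright probes, -0.013 on the next brightest probe and -0.090 with P10 replicates 3 and 4 alone, and passed with array weights (0.35). miR-107 was higher in adult in all 28 (0.18 to 1.56), and passed in 4 of them. These were the all-probe percentile (0.94), array weights (0.65) and the fits without P10 replicate 3 or without P10 replicate 4 (0.57 in each). Leaving out 1 array gave 0.050 to 0.30 for miR-103 and 0.33 to 0.57 for miR-107. The gap between them lay at -0.48 to -0.18 in 27 alternatives without overlap of the ages, but many of these could not come out otherwise. The gap could not change under 1 scaling factor per array, the filters, the floor or the replicate block (-0.27 in each). Nor could it gain overlap when arrays were left out. Its exact p was above 0.05 only in designs too small to reach it: 0.0571 without any 1 array (-0.29 to -0.24), 0.133 with P10 replicates 3 and 4 alone (-0.27) and 0.125 as a replicate block (-0.27). Array weights were lowest for P10 replicates 3 and 4 (0.177 and 0.107).

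The number of miRNAs called was 113 here (65 higher and 48 lower in adult), 75 without scaling, 69 with spike-in scaling, 34 with cyclic loess over all probes, 179 with array weights and 84 to 138 without 1 array. Higher against lower, these were 90 and 34 under the all-probe percentile, 58 and 17 unscaled, 60 and 9 scaled to spike-ins, 12 and 22 under all-probe cyclic loess, and 36 and 50 under normexp. The miR-15/miR-107 group had 5 called, 3 under the all-probe percentile, 3 under cyclic loess over all probes, 2 without scaling and with spike-in scaling, and 4 to 5 without 1 array. The insulin action list had 8, 1 with that cyclic loess, 5 with the replicate block and 5 to 9 without 1 array (5 without adult replicate 1 or 3), and at most 12, under the all-probe percentile. The reference list had 5, 2 without scaling and with spike-in scaling, 1 with that cyclic loess and 3 with normexp. The causes were not tested.

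With each miRNA's mean at its own age removed, same-numbered arrays of the ages correlated at 0.18, -0.09, 0.48 and -0.23. These are correlations of the deviations from those means, not of the levels. Only for replicate 3 was the same-numbered adult array the best match. A pairing by number was thus not evident. With replicate numbers as a block miR-103 and miR-107 stayed uncalled (limma adjusted p = 0.456 and 0.108).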
